A study of Mus musculus with 12 samples.

Results

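Megalin, cubilin and the genes that carry their cargo into the proximal tubule cell were followed in mouse kidney 24 h after rhabdomyolysis-induced acute kidney injury (RIAKI). The 7 genes were chosen by name, and each had enough reads to be tested: Lrp2, Cubn, Amn, Dab2, Clcn5, Folr1 and Fcgrt, out of 41740 genes listed, of which 13536 were tested. 5 of the 7 were lower in RIAKI than in control kidneys, none was higher, and Dab2 and Clcn5 did not pass the test. Among the 13536 genes tested, 18.8% were called lower and 17.4% higher.

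The series compared whole kidneys of wild-type mice by 3′ RNA sequencing, with 1 library per mouse, 6 mice with RIAKI and 6 controls. All 12 mice were male C57BL/6NCrl animals that had no drinking water for 19 h before the injection. In the RIAKI group, 50% glycerol was injected into the muscle of the left hind limb at 0.05 ml per 10 g of body weight, and controls received saline by the same route. Both groups were under isoflurane for the injection, received Rimadyl (carprofen, a painkiller) at 5 mg/kg at the start and again 3 h later, and were killed at 24 h. Glycerol damages the muscle itself, so that the kidney is reached by what the muscle releases, and a whole kidney mixes all nephron segments with vessels, interstitium and blood cells. The labels give no batch.

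Megalin and cubilin are large receptors on the apical membrane of proximal tubule cells. They bind filtered proteins, vitamin carriers and hormones, and in muscle breakdown also myoglobin, and take them up through clathrin-coated pits into endosomes, where acidification releases the cargo and the receptors return to the brush border. Loss of this uptake is known to give proteinuria of low molecular weight.

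Each library held 1579157 to 2073959 exon reads, of which 648268 to 1315209 were not mitochondrial ribosomal RNA. The gene of the injury molecule KIM-1, Havcr1, checks the labels. Scaled to a common library size (CPM), it reached 714 ± 178 in RIAKI against 20.1 ± 3.48 in the controls (mean ± SD, 6 mice each), as the group labels have it. CPM of 1 gene are compared here between groups. Where CPM of different genes are divided or summed within a library, only the difference of the result between groups is read.

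The receptors fell. Lrp2 (ENSMUSG00000027070, chr2:69424340-69586065, minus strand, GRCm38) encodes megalin, a member of the low-density lipoprotein receptor family. Its lowest, median and highest values were 23.7, 32 and 42.2 CPM in RIAKI and 83.4, 96.2 and 108 CPM in controls. RIAKI replicate 5 was the highest of its group, and the ranges did not overlap. On the log2 scale Lrp2 changed by −1.59 (SE 0.15, adjusted p = 6.25e-10, edgeR's quasi-likelihood test, adjusted over all genes tested), which left 33.2% of the control mean. Of all genes tested, 18.8% were called lower in RIAKI and 17.4% higher, 36.3% in all.

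Cubn (ENSMUSG00000026726, chr2:13276338-13491813, minus strand) encodes cubilin, which has no membrane-spanning part and depends on amnionless to reach the cell surface. It ranged over 2.21, 4.02 and 7.73 CPM in RIAKI and over 12.7, 17.8 and 19.0 CPM in controls as lowest, median and highest values. The groups did not overlap. These levels rest on few reads, 46 in all 6 RIAKI libraries (4 to 15 each) against 189 in controls (18 to 44 each). The log2 change was −1.97 (SE 0.26, adjusted p = 2.73e-07, edgeR).

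Amn (ENSMUSG00000021278, chr12:111271095-111276426, plus strand) encodes amnionless, the membrane anchor of cubilin. Its lowest, median and highest values were 16.5, 28.7 and 37.1 CPM in RIAKI and 46.8, 56.6 and 70.3 CPM in controls. RIAKI replicates 5 and 6 were the low ones, and again the ranges were apart. The change was −1.09 on the log2 scale (SE 0.17, adjusted p = 8.89e-06, edgeR).

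**Figure D1:**
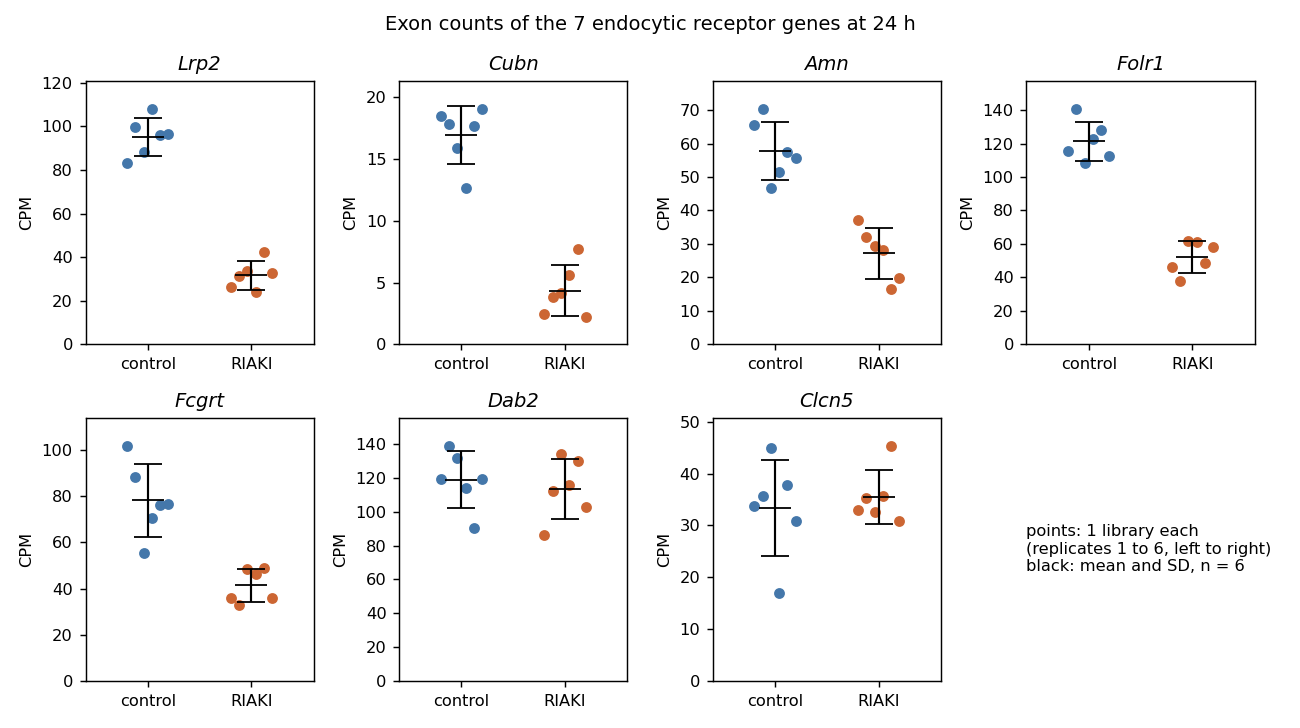
CPM of each gene in each library, on axes that start at 0, with 1 point per mouse, and the group mean and SD (n = 6) in black. For Lrp2, Cubn, Amn, Folr1 and Fcgrt every RIAKI kidney lies below every control kidney, whereas for Dab2 and Clcn5 the groups lie over each other.

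The promoters of these 3 receptor genes, each called lower, are shown. Each window is taken from RefSeq (GRCm38.p6) and runs 5′ to 3′ on the gene's own strand from 250 bases before to 50 bases after the RefSeq start. Capitals mark GGGCGG (GC box), CACGTG (E box) and GTTAA (1 arm of the palindrome bound by HNF1), each searched on both strands. The motifs were chosen with the members' promoters in view.
Lrp2, chr2:69585980-69586279 (minus strand): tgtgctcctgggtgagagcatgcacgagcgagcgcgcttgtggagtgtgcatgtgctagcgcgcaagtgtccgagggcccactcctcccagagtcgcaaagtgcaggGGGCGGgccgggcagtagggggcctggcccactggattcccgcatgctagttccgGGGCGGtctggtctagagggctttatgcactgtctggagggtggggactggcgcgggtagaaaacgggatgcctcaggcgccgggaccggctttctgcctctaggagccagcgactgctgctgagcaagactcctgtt
Cubn, chr2:13491827-13492126 (minus strand): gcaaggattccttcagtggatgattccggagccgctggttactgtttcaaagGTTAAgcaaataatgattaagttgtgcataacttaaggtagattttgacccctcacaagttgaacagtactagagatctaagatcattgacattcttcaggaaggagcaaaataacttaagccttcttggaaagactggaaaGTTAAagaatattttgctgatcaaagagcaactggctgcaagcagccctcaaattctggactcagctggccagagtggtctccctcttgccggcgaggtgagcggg
Amn, chr12:111270846-111271145 (plus strand): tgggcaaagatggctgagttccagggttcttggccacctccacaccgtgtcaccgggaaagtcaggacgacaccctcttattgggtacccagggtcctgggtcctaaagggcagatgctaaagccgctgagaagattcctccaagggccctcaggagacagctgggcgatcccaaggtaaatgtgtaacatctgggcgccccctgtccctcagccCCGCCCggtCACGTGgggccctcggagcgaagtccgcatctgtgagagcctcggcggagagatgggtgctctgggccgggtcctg
Lrp2 held GGGCGG 2 times, Cubn held GTTAA 2 times, and Amn held 1 CACGTG and 1 GGGCGG, read from the other strand as CCGCCC. No motif was shared by all 3 windows. Of 32851 promoter windows of the same length, 35.7% held GGGCGG, 24.2% GTTAA and 7.15% CACGTG. The full HNF1 palindrome (0.00913% of windows), the HNF4 site CAAAGTCCA (0.475%) and the AP-1 site TGANTCA (7.81%) were found in none of the windows of the 6 members matched, which were 8 because Dab2 and Clcn5 have 2 each. Folr1 had no entry in the table.

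Folr1 and Fcgrt also fell. Folr1 (ENSMUSG00000001827, chr7:101858331-101870788, minus strand) encodes the folate receptor, which is held in the apical membrane by a lipid anchor and takes filtered folate back. Its lowest, median and highest values were 38.0, 53.2 and 61.9 CPM in RIAKI and 109, 119 and 141 CPM in controls. The groups did not overlap, and the log2 change was −1.22 (SE 0.14, adjusted p = 4.77e-08, edgeR). Anapc15 on the opposite strand overlaps the gene and had 155 exon reads in all 12 libraries (99 in RIAKI), against 554 reads of Folr1 in RIAKI and 1352 in controls, and whether counting used strand is not given in the sources used here.

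Fcgrt (ENSMUSG00000003420, chr7:45092990-45103851, minus strand) encodes the heavy chain of the neonatal Fc receptor, which binds albumin and IgG at acid pH and returns them from the endosome. Its lowest, median and highest values were 33.1, 41.1 and 48.9 CPM in RIAKI and 55.3, 76.6 and 102 CPM in controls. Control replicate 3 was the lowest control kidney and came closest to the RIAKI group, but the groups were apart. The change was −0.93 on the log2 scale (SE 0.16, adjusted p = 2.35e-05, edgeR). B2m, the light chain of the same receptor and of class I molecules in all cells, changed by −0.15 (adjusted p = 0.421, edgeR) and was not called.

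Dab2 and Clcn5 did not follow the receptors. Dab2 (ENSMUSG00000022150, chr15:6299788-6440712, plus strand) encodes the adaptor that ties the tail of megalin to clathrin and to myosin VI. Its lowest, median and highest values were 86, 114 and 134 CPM in RIAKI and 90.3, 119 and 139 CPM in controls. The groups overlapped over nearly their whole range. The log2 change was −0.076 (SE 0.14, adjusted p = 0.717, edgeR), with a 95% interval for the ratio of RIAKI to control of 0.776 to 1.16.

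Clcn5 (ENSMUSG00000004317, chrX:7153810-7319358, minus strand) encodes ClC-5, the chloride and proton exchanger of early endosomes whose loss causes Dent disease in humans. Its lowest, median and highest values were 30.9, 34.1 and 45.3 CPM in RIAKI and 16.9, 34.8 and 45 CPM in controls. RIAKI replicate 5 stood above its group, control replicate 4 stood below the others, and the groups overlapped. The log2 change was 0.075 (SE 0.18, adjusted p = 0.779, edgeR), and the 95% interval of the ratio was 0.821 to 1.35. With RIAKI replicate 1 left out the change of Dab2 became 0.026, with RIAKI replicate 5 left out that of Clcn5 became −0.0016, and with control replicate 4 left out −0.050, none of which passed the test.

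The promoters of these genes at their upstream starts are given for comparison, with the same capitals.
Dab2, chr15:6299539-6299838 (plus strand): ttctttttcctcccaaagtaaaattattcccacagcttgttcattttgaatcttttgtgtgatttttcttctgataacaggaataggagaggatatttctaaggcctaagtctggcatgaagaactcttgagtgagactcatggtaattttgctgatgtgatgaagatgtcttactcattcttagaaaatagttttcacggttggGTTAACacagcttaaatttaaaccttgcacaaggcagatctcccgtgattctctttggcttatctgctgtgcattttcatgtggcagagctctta
Clcn5, chrX:7319309-7319608 (minus strand): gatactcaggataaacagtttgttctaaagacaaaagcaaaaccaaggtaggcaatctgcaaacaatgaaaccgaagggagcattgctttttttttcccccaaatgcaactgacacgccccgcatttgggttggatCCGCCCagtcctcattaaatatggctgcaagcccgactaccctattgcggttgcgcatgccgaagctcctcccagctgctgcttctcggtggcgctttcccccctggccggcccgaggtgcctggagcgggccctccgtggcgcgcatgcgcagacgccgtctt
Here the run GTTAAC in Dab2 holds GTTAA on both strands and was counted 2 times, and Clcn5 held GGGCGG once, on the other strand. The downstream start of each gene held GTTAA 2 times. GTTAA and GGGCGG each stood in members that fell and in members that were not called. Whether any motif bears on the changes was not tested. The window of Fcgrt, which also fell and is not printed, held none of the motifs searched.

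Across the 7 genes, 5 were called lower, against 18.8% of all genes tested, and the same 5 showed no overlap between the groups, which held for 19.3% of all genes tested. The median log2 change was −1.09 for the members and −0.014 for all genes tested. In a whole kidney, fewer proximal tubule cells and less of a transcript in each cell cannot be told apart.

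**Figure D2:**
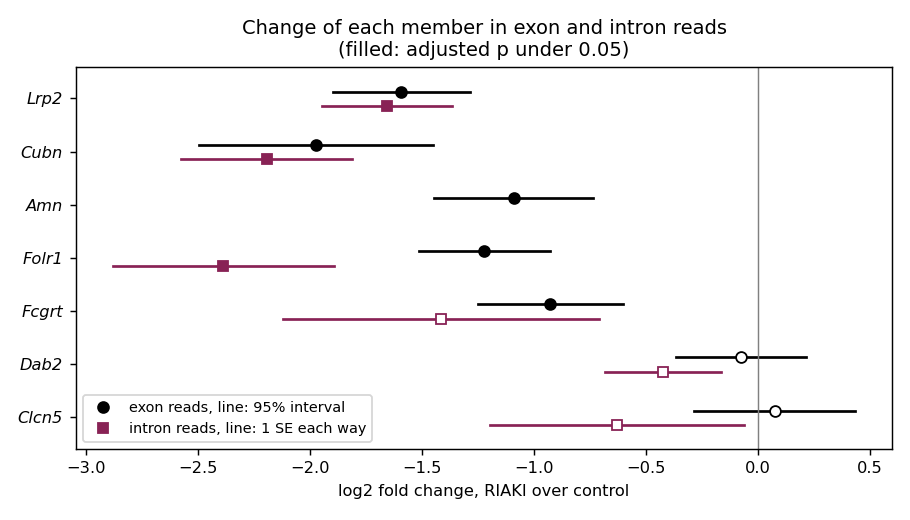
Log2 fold change of RIAKI over control for each member, in exon reads (circles, line: 95% interval) and intron reads (squares, line: 1 SE each way). Filled symbols have an adjusted p under the threshold of 0.05. Lrp2, Cubn and Folr1 are filled in both kinds of read, Dab2 and Clcn5 in neither, and Amn had too few intron reads to be tested.

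Reads inside introns come largely from unspliced transcripts, although in a 3′ library they may also arise at internal runs of A. They were counted in the same libraries and are no independent sample. 3 of the 6 members tested were called lower and none higher, where 5.31% of all genes tested in introns were called lower and 3.14% higher, 8.46% in all. The lowest, median and highest intron counts of Lrp2 were 8, 10 and 29 in RIAKI and 15, 31 and 104 in controls. RIAKI replicate 1 and control replicates 1 and 2 were the high ones, and the counts overlapped. The log2 change was −1.66 (SE 0.29, adjusted p = 3.27e-06, edgeR), close to that in exons. Cubn had 3 to 5 intron reads per RIAKI library and 11 to 30 per control library, which did not overlap, with a change of −2.19 (SE 0.38, adjusted p = 2.51e-06, edgeR). Folr1 had 1 to 3 and 5 to 21 reads, again apart, and changed by −2.39 (SE 0.49, adjusted p = 0.000116, edgeR). Dab2 had 25 to 46 intron reads in RIAKI and 24 to 112 in controls, and was not called (−0.42, SE 0.26, adjusted p = 0.390, edgeR). Clcn5 (14 reads in RIAKI, 23 in controls; −0.63, adjusted p = 0.622) and Fcgrt (6 and 18 reads; −1.41, adjusted p = 0.246) were not called at this depth. These values moved with single libraries: Dab2 was −0.19 without control replicate 2, and Clcn5 was −0.37 without RIAKI replicate 2 and −0.98 without RIAKI replicate 6.

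Whether the members changed by another factor than megalin was asked with the ratio of each to Lrp2 within a library. 6 ratios were compared by a 2-sided exact permutation test, for which 0.00216 is the smallest p that can occur, and adjusted over the 6. Dab2 rose against Lrp2 by 1.53 on the log2 scale (p = 0.00216, adjusted p = 0.00649, exact test). Its log2 ratio ran from 1.61 to 2.26 in RIAKI and from −0.085 to 0.58 in controls, so every RIAKI kidney was above every control kidney. Clcn5 rose against Lrp2 by 1.73 (p = 0.00216, adjusted p = 0.00649, exact test). Its log2 ratio lay between −2.64 and −0.96 in controls and between −0.074 and 0.58 in RIAKI, again apart. Fcgrt rose against Lrp2 by 0.69 (p = 0.00866, adjusted p = 0.0173, exact test) with overlapping groups. Lrp2 itself fell with no overlap, so a member that kept its level rises in this ratio. Cubn, the partner receptor, differed by −0.35 (p and adjusted p = 0.206, exact test), Amn by 0.48 (p = 0.136, adjusted p = 0.164) and Folr1 by 0.38 (p = 0.0584, adjusted p = 0.0877), none of them called. The value of Cubn was −0.19 without RIAKI replicate 6, and it was not called whichever library was left out. Left without RIAKI replicate 5, the ratios of Amn (0.70) and Folr1 (0.48) passed the threshold, and without RIAKI replicate 2 that of Folr1 did (0.47).

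The same was asked against markers of the proximal tubule. In a whole kidney, reads of a member may also come from other cells, which was not tested. 16 transporters and enzymes of the S1 and S2 segments of the proximal tubule, none of them a member, summed to 769 to 972 CPM in RIAKI and 2421 to 2754 CPM in controls. 15 of the 16 were called lower, against 18.8% of all genes tested, with a median log2 change of −1.97. Slc6a19, the neutral amino acid transporter, named after its value was seen, changed by 0.14 and was not called. It gave 112 CPM of the sum in controls and 124 CPM in RIAKI (means). The sum weighs each marker by its CPM, and no other choice of markers was run. Lrp2 itself changed by −1.59, less than the median of these markers.

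The ratio of Lrp2 to this sum did not pass the test. It differed by 0.044 on the log2 scale (p and adjusted p = 0.708, exact permutation test, 7 ratios compared), from −5.03 to −4.34 in RIAKI and from −5.04 to −4.59 in controls, so the groups overlapped. Nor did that of Cubn, which differed by −0.31 (p = 0.253, adjusted p = 0.295, exact test), −0.47 without RIAKI replicate 5 and −0.18 without RIAKI replicate 6. Without RIAKI replicate 5 the value of Lrp2 was −0.033, and without control replicate 1 it was −0.0088. The other 5 members were higher against the markers in RIAKI. The ratio of Clcn5 rose by 1.77, of Dab2 by 1.57 and of Fcgrt by 0.74 (p = 0.00216 and adjusted p = 0.00505 for each, exact test), and for these genes the groups did not overlap. That of Folr1 rose by 0.42 (p = 0.0108, adjusted p = 0.0189) and of Amn by 0.52 (p = 0.0303, adjusted p = 0.0424, exact test), with overlap. The marker sum itself fell with no overlap, so a gene that kept its level rises in this ratio. No member was called higher by itself. The call of Amn was lost without RIAKI replicate 1 (0.40), 2 (0.47), 3 (0.54) or 4 (0.49), and without control replicate 1 (0.55), 3 (0.47), 4 (0.49), 5 (0.53) or 6 (0.54), with adjusted p up to 0.0848.

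**Figure D3:**
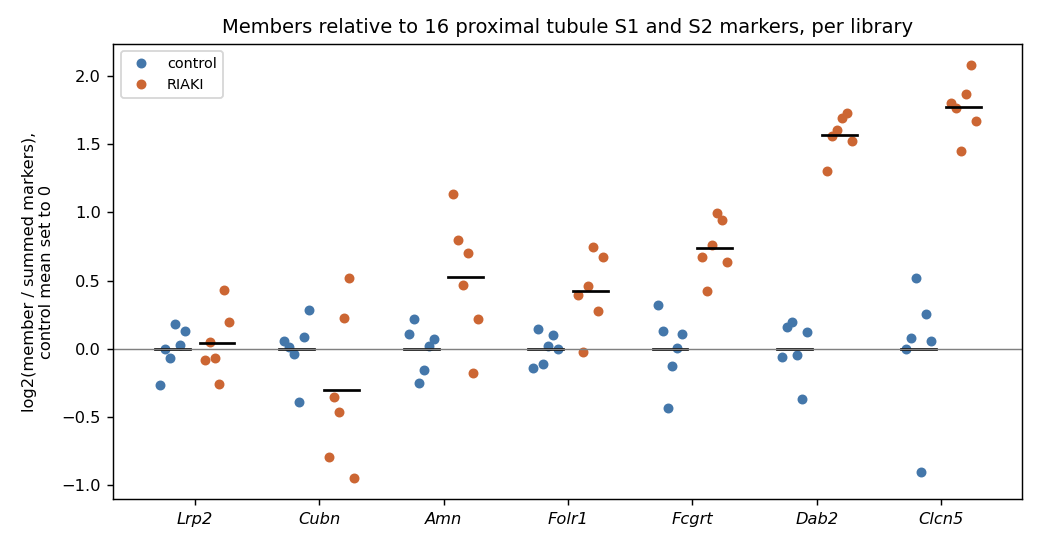
Log2 ratio of each member to the summed CPM of 16 S1 and S2 proximal tubule markers in each library, with the control mean of each gene set to 0 and black bars at group means. For Lrp2 the RIAKI kidneys lie among and around the controls, with a difference of means of 0.044, while for Fcgrt, Dab2 and Clcn5 every RIAKI kidney stands above every control kidney.

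Markers of some other kidney cells changed as well, and the part of these cells in the members' values was not tested. The 8 S3 markers were all called lower (median −2.34), as were 6 of 7 thick ascending limb, 4 of 6 distal and connecting tubule, 6 of 8 principal cell and 4 of 8 intercalated cell markers, none of them higher. 7 of 8 injured tubule genes were called higher. Of all genes tested, 18.8% were called lower and 17.4% higher. Of 10 endothelial markers none was called in either direction, and their sum was 98.2 to 131 CPM in RIAKI and 112 to 141 CPM in controls. Of 8 podocyte markers 1 was called higher, with sums of 77.0 to 106 and 46.4 to 72.9 CPM, and without control replicate 4 another 1 was called lower.

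Blood and stromal cells are listed because some of them, macrophages among them, also express Dab2. Which cells the reads of the other members came from was not tested either. Macrophage markers summed to 72.7 to 111 CPM in RIAKI and 37.8 to 68.3 CPM in controls. Of 12 genes 10 were tested, 4 were called higher (Cd68, Cd14, Lyz2 and Tyrobp) and Csf1r lower, and the defining markers Adgre1 (2 reads in RIAKI, 6 in controls) and Cd163 (1 and 0) were near 0. Neutrophil markers summed to 17.6 to 50.0 and 2.12 to 5.25 CPM, with 3 of 4 tested genes higher and no read of Ly6g. Fibroblast markers summed to 82.0 to 127 and 65.6 to 111 CPM, with 2 of 8 higher and 2 lower. The shares over all genes tested were 17.4% higher and 18.8% lower. Of the fibroblast genes 1 was called higher without RIAKI replicate 2, none was called lower without RIAKI replicate 1 or 4, and 1 was called lower when RIAKI replicate 2, 5 or 6 was left out, and likewise control replicate 3, 4 or 5.

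Of 9 partners of the receptors (chaperone, adaptors, motor and light chain among them), 2 were lower, 2 higher and 5 not called, with a median log2 change of −0.15. These shares lie near those of all genes tested, 18.8% lower and 17.4% higher. Lrpap1, the chaperone that keeps megalin free of ligands in the endoplasmic reticulum, fell from 292 ± 20.5 to 115 ± 17.8 CPM (SD, n = 6), a log2 change of −1.35 (adjusted p = 2.47e-09, edgeR). Myo6, the motor that moves Dab2-bound vesicles inward, fell from 79.3 ± 15.3 to 34.4 ± 5.21 CPM (−1.21, adjusted p = 2.23e-07, edgeR). Appl1, an adaptor of early endosomes, rose by 0.90 (adjusted p = 0.00445), and Gipc1, which links megalin to myosin VI, by 0.55 (adjusted p = 0.0107). Among those not called were Ocrl, Inpp5b, Ankra2 and B2m.

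Of 16 genes of the clathrin coat, 2 were higher, 2 lower and 12 not called (median 0.17), where 17.4% of all genes tested were higher and 18.8% lower. Ap2m1, the AP-2 subunit that reads sorting signals, rose from 142 ± 17.2 to 221 ± 26.4 CPM (SD, n = 6; log2 change 0.64, adjusted p = 0.000330, edgeR), and Cltb, a clathrin light chain, by 0.52 (adjusted p = 0.00331). Epn1, the membrane-bending epsin, fell by 1.45 (adjusted p = 4.97e-06), and Fcho2, which starts coated pits, by 0.60 (adjusted p = 0.0117).

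Of 20 genes of endosome sorting and recycling, 5 were lower, 2 higher and 13 not called (median 0.11). The shares over all genes tested were 18.8% lower and 17.4% higher. Rab11fip3, an effector of recycling endosomes, fell from 49.5 ± 6.48 to 11.2 ± 1.76 CPM (SD, n = 6; −2.16, adjusted p = 1.24e-11, edgeR). Rab4a, a GTPase of fast recycling, fell by 1.40 (adjusted p = 2.72e-05), and Rab5c of early endosomes by 0.59 (adjusted p = 0.00259). Snx27, a sorting nexin, fell by 0.43 (adjusted p = 0.0387). Rab11a, the GTPase of slow recycling to the apical membrane, rose by 0.71 (adjusted p = 0.000102) and Ehd4 by 0.72 (adjusted p = 0.00447). The count of lower genes was 3 when RIAKI replicate 3, 4 or 6 was left out, and likewise control replicate 2 or 3.

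Of 16 other endocytic receptors, 5 were lower, 4 higher and 7 not called (median −0.35). The shares over all genes tested were 18.8% lower and 17.4% higher. Lrp4 (−1.54, adjusted p = 5.93e-05, edgeR) and Lrp6 (−0.89, adjusted p = 0.000326), relatives of megalin that act in Wnt and agrin signalling, fell, as did Vldlr (−0.69, adjusted p = 0.00927) and Igf2r (−0.66, adjusted p = 0.0152), the receptor of lysosomal enzymes. Havcr1, which takes up dying cells, rose by 5.15 (SE 0.19, adjusted p = 4.32e-18), and Scarb2, a lysosomal membrane receptor, by 0.78 (adjusted p = 0.00496).

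Among 9 other genes of the CLC family and its subunits, 4 were lower, none higher and 5 not called (median −0.87). The shares over all genes tested were 18.8% lower and 17.4% higher. Among the 4 lower genes here were Bsnd (−2.19, adjusted p = 5.84e-05, edgeR), which encodes the channel subunit barttin, and the endosomal exchanger Clcn3 (−0.63, adjusted p = 0.00121). Clcn4, Clcn6, Clcn7, Clcn2 and Ostm1 were not called. Without RIAKI replicate 3, and without control replicate 4, 1 gene of this group was called higher.

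Of 16 listed symbols of ligands and vitamin carriers, 15 were found and 12 tested. Of these 12, 5 were lower, 1 higher and 6 not called (median −0.72), where 18.8% of all genes tested were lower and 17.4% higher. Ttr, the thyroxine carrier that megalin takes up, fell from 151 ± 33.6 to 26.4 ± 5.16 CPM (SD, n = 6; −2.52, adjusted p = 8.51e-13, edgeR). Apoe fell by 1.30 (adjusted p = 8.07e-08), Tcn2, the carrier of vitamin B12, by 1.01 (adjusted p = 9.48e-07) and Slc19a1, the reduced folate carrier, by 0.85 (adjusted p = 0.00159). Rbp4, the retinol carrier, rose by 1.36 (adjusted p = 0.0129). Mb, the gene of myoglobin, named after its values were seen, had 2 reads in RIAKI and 1 in controls. These reads count kidney transcripts and not the filtered proteins.

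**Figure D4:**
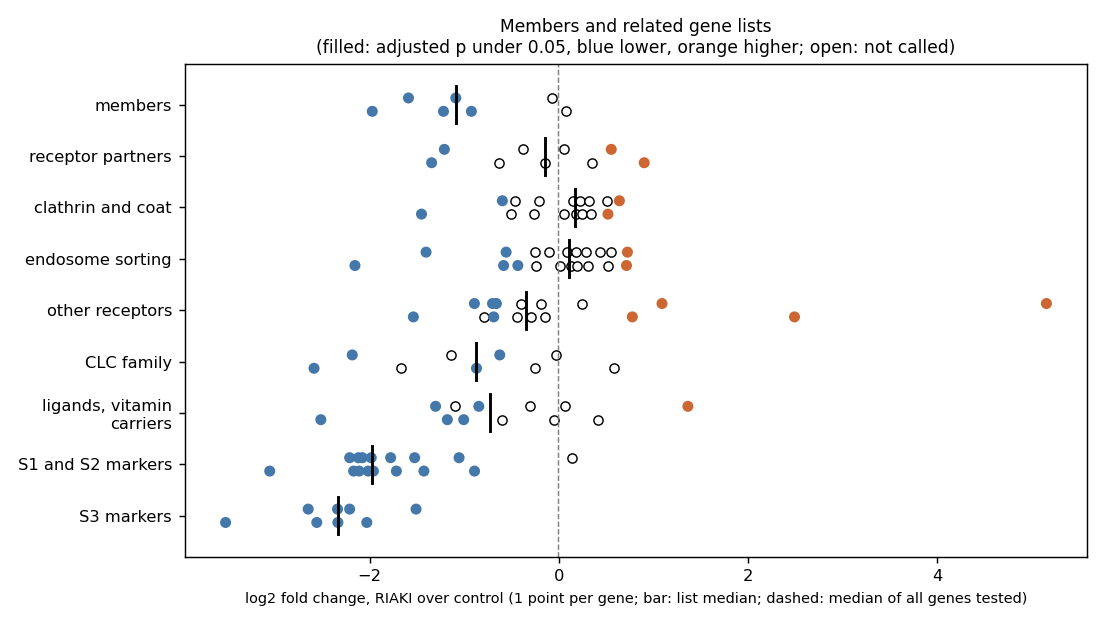
Log2 fold change of RIAKI over control for the members, 6 lists of related genes and the proximal tubule markers, with 1 point per gene, a bar at each list's median and a dashed line at the median of all genes tested (−0.014). Blue points were called lower, orange points higher, and open points were not called. The marker lists lie furthest to the left (medians −1.97 and −2.34), and the coat and sorting lists lie around the median of all genes.

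The genes most like each member over the 12 libraries were sought among 3147 genes of at least 20 CPM on average, by the root mean square difference of centred log2 CPM. For Lrp2 these were Acsm2 (0.158), 4931406C07Rik (0.166) and Arl6ip1 (0.173), and for Cubn Igfbp4 (0.235), Serpina1d (0.269) and Hnf4a (0.272), a transcription factor of the proximal tubule. Amn was nearest to Ppt2 (0.149), Slc25a39 (0.171) and Tkfc (0.187), and Folr1 to Tspan3 (0.135), Gpx1 (0.135) and Ndufv3 (0.153). Fcgrt was nearest to Pxmp4 (0.161), Tcn2 (0.169) and Acadvl (0.188). Dab2 was nearest to Ap2a2 (0.144), a subunit of the AP-2 coat, then Ube2e3 (0.154) and Pcmt1 (0.162), and Clcn5 to Akip1 (0.207), Ccar1 (0.231) and the coat protein gene Eps15 (0.234). The distances of Cubn and Clcn5 were the largest, and these are the 2 members with the fewest exon reads.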

How the data were processed

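Kidney RNA of 12 mice was sequenced as 3′ libraries with the QIAseq UPX kit. The authors demultiplexed the reads with bcl2fastq, removed duplicates by molecular identifier in CLC Genomics Workbench, mapped to GRCm38 and assigned reads to Ensembl gene models. The deposited exon values are raw counts of reads per gene, with no normalization. Intron and junction reads are further deposited counts. The deposited TPM columns were not used.

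Genes with at least 10 counts over the 12 libraries were tested by edgeR 4.0.16 (R 4.3.3; TMM, quasi-likelihood test, Benjamini-Hochberg over all genes tested, threshold 0.05). Intron reads used the library sizes and factors of the exon reads. Ratios were formed as log2 of CPM with 0.5 CPM added to each part. The study's methods name the exact test, which was run as an alternative, as were DESeq2 1.42.0, limma 3.58.1, other scalings and filters, a replicate block and leaving out each library. The edgeR fit was run on simulated counts with far fewer changed genes than were called here, and the exact test on random draws. These runs do not test the scaling at the share of genes called here. Each mouse is 1 replicate, and depth limits what can be called for genes of few reads.

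The members, the 6 lists of related genes and the 12 marker lists were chosen with earlier results of these data known. Named were all members, Havcr1, and in each list of related genes up to 4 called genes of smallest p in the direction most called genes share and up to 2 of the opposite sign (any gene, where a list has 13 or fewer). Some genes that this rule covers are left out by name. Groups came from the sample labels.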

Additional observations from a re-analysis of the deposited data

Results flagged for a closer look

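Clcn5 in RIAKI replicate 5 was read at 45.3 CPM, and its gap to the next RIAKI library was large for the range of the 6. It was the only such value among 14 groups of 6 looked at, and chance gives about 1 in 20 groups.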

How the results depend on the processing

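The 5 members called lower stayed 5, and none was called higher, under all 23 alternatives, and 3 were lower in introns under all 16 run there. Over the 23, the log2 change ran from −1.69 to −1.51 for Lrp2, −2.24 to −1.67 for Cubn, −1.19 to −0.97 for Amn, −1.27 to −1.02 for Folr1 and −1.01 to −0.61 for Fcgrt (highest adjusted p 0.00446). Leaving out 1 library each gave −0.144 to 0.026 for Dab2 and −0.050 to 0.180 for Clcn5. Against megalin it gave 0.331 to 0.698 for Amn, 0.251 to 0.481 for Folr1 and −0.515 to −0.190 for Cubn, and against the proximal tubule markers −0.033 to 0.105 for Lrp2, −0.470 to −0.176 for Cubn and 0.402 to 0.665 for Amn. With 2 CPM added, Cubn against the markers was 0.0080 and against megalin −0.080.

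The libraries numbered 1 and 2 deviated together, so a comparison of the other 8 was added after seeing the data. There Dab2 changed by 0.098 in exons and Clcn5 by 0.048 in introns, 6 genes of the related lists were called higher instead of 11, and against megalin Dab2 (1.65), Clcn5 (1.78) and Fcgrt (0.94) had adjusted p = 0.0571 by exact test, where 0.0286 is the smallest unadjusted p. Against the markers, Dab2 (1.66), Clcn5 (1.79), Fcgrt (0.95) and Folr1 (0.54) had adjusted p = 0.05, equal to the threshold (exact test). Amn against the markers was 0.384 (adjusted p = 0.200).

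The labels do not say that a replicate number marks shared animals, batches or days, and the data do not pair all numbers. Libraries of the same number correlated at 0.4, 0.285, −0.0664, 0.0979, −0.29 and 0.202 over 3147 genes, and not every library was closest to its own number. A replicate block changed no call of a member in exon reads. In the paired exact test, 64 sign changes make 0.0313 the smallest p, so a single ratio cannot pass after adjustment. The differences are those of the main test, but every ratio call was lost. Against megalin, Dab2 (1.53), Clcn5 (1.73) and Fcgrt (0.69) had adjusted p = 0.0625 by the paired exact test. Against the markers, Dab2 (1.57), Clcn5 (1.77) and Fcgrt (0.74) had 0.0729, Folr1 (0.42) 0.109 and Amn (0.52) 0.131. All genes called numbered 4908, and 4128 with total counts as the only scaling, where 3 endosome sorting genes, 3 other receptors and 1 coat gene were lower. Of the values for single lists and introns over all alternatives, 888 kept their call or stayed within 1.5 times and 34 list counts moved further. Few reads limit Cubn, and the intron counts of Clcn5, Fcgrt and Amn.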

Other observations

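Reads that cross an exon junction made up 22.3% of the exon reads of Dab2 in RIAKI (15.6% to 31.3% per library, 267 reads) and 14.9% in controls (8.41% to 26.4%, 200 reads). The shares of the other members were lower in RIAKI except for Clcn5, which had 11 such reads in RIAKI and 4 in controls. Lrp2 had 16.8% and 20.2%, and Amn 29.6% and 34.1%. Over all genes outside the mitochondrial genome the median share per library was 20.6% in RIAKI and 21% in controls. No test was made of these shares.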
